A study of Mus musculus with 35 samples.

Results

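The 8 genes described here are Sult2a2, Hao2, Slc22a27, Slc22a29, Slc22a26, Atp6v0d2, Ntrk2 and Trim24, out of 18193 genes measured in mouse liver. They were selected on measured values: a signal that fell in wild-type liver between 3 weeks and 2 months of age, or that was higher again at 2 months in livers labelled as lacking E2f1, E2f2 and E2f3, as a female-like growth hormone pattern would give. The array reads them with 19 probe sets that name that gene alone, and each gene is represented by its brightest set unless another is named. The values that chose them, the change with age in wild type and the difference of the E2f1/E2f2/E2f3 group from wild type, are given below as a description, without a test.

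Liver RNA was hybridised to 35 Affymetrix expression arrays in 9 groups of genotype and age. Wild-type control livers of the FVB strain gave 3 arrays at 3 weeks (3w WT) and 5 at 2 months (2m WT). At each age 4 arrays came from FVB livers with Albumin-Cre and E2f7loxp/loxp (7KO), 4 from Albumin-Cre with E2f8loxp/loxp (8KO) and 4 from Albumin-Cre with both floxed genes (78KO). Albumin-Cre is active in hepatocytes, and the labels do not say which other liver cells keep these genes. The remaining 3 arrays, at 2 months alone, came from livers with Mx1-Cre, E2f1-/-, E2f2-/- and E2f3loxp/loxp (2m 123KO), on a mixed C57B/L6 and FVB background. Mx1-Cre is induced by interferon, E2f1 and E2f2 are lost in every cell of these mice, and the strain differs from that of the wild-type arrays, so genotype and strain cannot be told apart. The labels do not give the sex of the animals or say whether wild-type livers carried Cre. Arrays of a group carry replicate numbers, but whether these are different mice is not stated, so p-values reflect only how far these samples spread, which may be technical.

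Values are log2 signals, where a difference of 1 is a factor of 2. The arrays fell into 3 distributions, called runs here, that the labels do not describe. All 3-week arrays formed one run, the 2m 7KO, 8KO and 78KO arrays with 2m WT replicates 1 to 3 another, and the 2m 123KO arrays with 2m WT replicates 4 and 5 the last. As deposited, the median gene was 0.78 to 0.79 log2 higher at 2 months than at 3 weeks in every genotype with both ages, so differences between ages were taken after quantile normalization of all arrays, where this shift was 0.00 to 0.02, and age and run cannot be told apart. Signals of single arrays are printed as deposited and compared only within an age. The 9 measured hepatocyte markers had an array mean between 13.39 and 14.50, and the Y-linked genes Eif2s3y, Kdm5d and Uty lay between 5.60 and 9.27 on all arrays. None of the targeted genes was called lower in its knockout, and the E2f8 set was higher in 8KO by 1.80 log2 at 3 weeks (SE 0.35, limma adjusted p = 0.00549) and by 2.20 at 2 months (SE 0.35, adjusted p = 0.00178). It was also higher in 3w 78KO, by 1.58. Whether that probe set lies in the deleted part is not known here, and the group names below are those of the labels.

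Liver metabolism is rebuilt between weaning and adulthood. After puberty growth hormone is released in pulses in male mice and more evenly in females, and the transcription factors STAT5B, BCL6, CUX2 and HNF6 turn this rhythm into sex-biased expression of hepatic enzymes and transporters. Several genes that adult females keep are expressed in young animals of both sexes and are shut off in males as they mature. E2F7 and E2F8 are atypical E2F repressors of cell cycle genes, and E2F1, E2F2 and E2F3 are their activating relatives.

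The largest measured changes with age belonged to 2 enzymes and 2 transporters. Sult2a2 is a hydroxysteroid sulfotransferase that conjugates bile acids and steroids, and Hao2 a peroxisomal oxidase of long-chain 2-hydroxy acids. Both had signals near the top of the array's range at 3 weeks. At 2 months Hao2 was near the floor of the array, and Sult2a2 was low on most arrays. Slc22a27 and Slc22a29, carriers of the organic anion transporter family, fell nearly as far, and their neighbour Slc22a26 fell less far on its brightest probe set. Atp6v0d2, the d2 subunit of the membrane sector of the proton-pumping V-ATPase, fell by a few log2 units, and Trim24, a nuclear receptor co-regulator and ubiquitin ligase, by about 1. Ntrk2, the TrkB receptor of brain-derived neurotrophic factor, kept its signal at both ages. In bulk liver RNA, fewer cells of a type and less RNA per cell cannot be told apart.

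**Figure D1:**
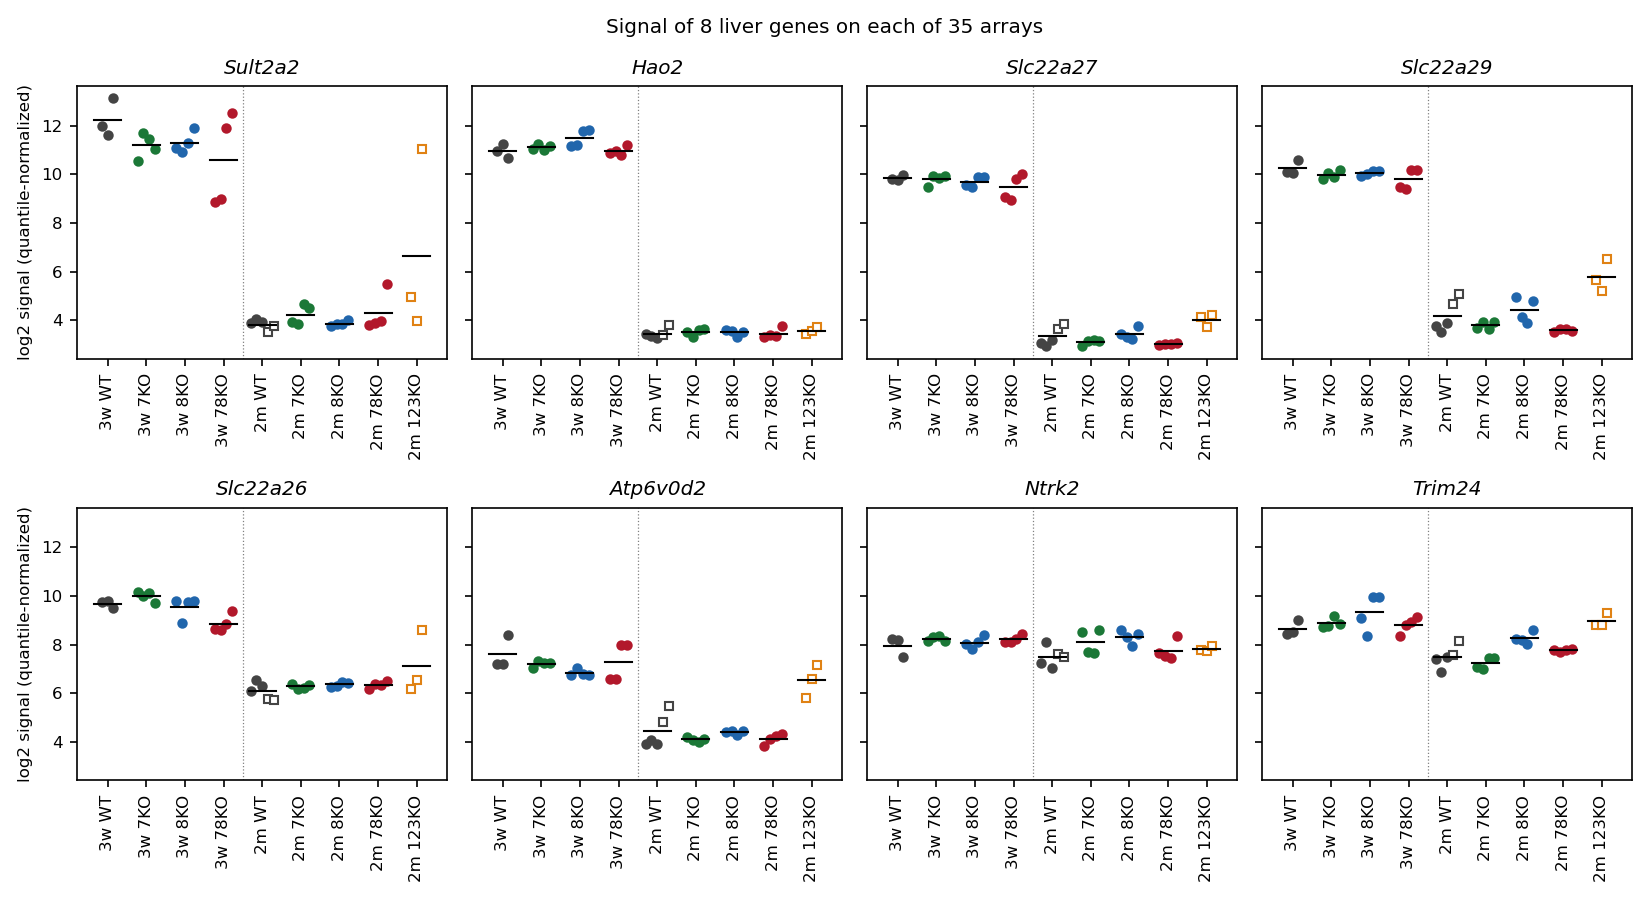
Quantile-normalized log2 signal (vertical axis) of each of the 8 genes on each of the 35 arrays, by group; filled circles are arrays of the 3-week run and of the 2-month run with 7KO, 8KO and 78KO, open squares are 2m 123KO and 2m WT replicates 4 and 5, and lines are group means. Hao2 dropped from a mean of 10.97 in 3w WT to 3.36 in 2m WT replicates 1 to 3, while Ntrk2 stood at 7.96 and 7.46 in the same groups.

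Hao2 showed the most uniform loss. Its signals at 3 weeks were 10.51, 10.87 and 10.31 in wild type and 10.60, 10.77, 10.53 and 10.78 in 7KO. The 8KO arrays read 10.71, 10.74, 11.39 and 11.40 and the 78KO arrays 10.43, 10.45, 10.30 and 10.76. Replicates 3 and 4 of 8KO were the highest of all, and the other arrays of the 4 groups overlapped. At 2 months Hao2 read 3.93, 3.88, 3.77, 3.54 and 3.96 in wild type, 4.01, 3.86, 4.12 and 4.14 in 7KO, 4.11, 4.06, 3.84 and 3.97 in 8KO and 3.81, 3.91, 3.85 and 4.23 in 78KO. The 2-month groups overlapped. Percentiles here are ranks among all probe sets of an array other than controls, and a rank also depends on the probes. Hao2 lay between the 96.0 and 98.3 percentile on the 15 arrays at 3 weeks. It lay between the 6.1 and 15.5 percentile on the 17 arrays at 2 months other than 2m 123KO.

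Sult2a2 varied far more within groups. At 3 weeks it read 11.55, 11.27 and 12.73 in wild type, 10.08, 11.28, 11.01 and 10.67 in 7KO and 10.62, 10.47, 10.91 and 11.47 in 8KO. The 78KO arrays gave 8.42, 8.52, 11.46 and 12.09, so replicates 1 and 2 lay below every other array of that age and replicates 3 and 4 within the wild-type span. By 2 months the gene was at 4.30, 4.52, 4.36, 3.69 and 3.91 in wild type, 4.39, 4.32, 5.06 and 4.87 in 7KO and 4.23, 4.26, 4.29 and 4.43 in 8KO. The 78KO arrays read 4.25, 4.35, 4.41 and 5.82, with replicate 4 above the rest. The percentile of Sult2a2 within an array went from 87.7 to 99.6 at 3 weeks to 10.2 to 47.9 on the 17 later arrays.

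The carriers Slc22a27 and Slc22a29 had similar values across the groups. Slc22a27 read 9.35, 9.39 and 9.60 in 3w WT, 9.01, 9.52, 9.40 and 9.55 in 7KO, 9.11, 9.02, 9.54 and 9.47 in 8KO and 8.63, 8.49, 9.31 and 9.56 in 78KO. At 2 months it read 3.58, 3.49, 3.69, 3.86 and 4.02 in wild type, 3.47, 3.70, 3.74 and 3.67 in 7KO, 3.95, 3.82, 3.77 and 4.2 in 8KO and 3.5, 3.55, 3.55 and 3.62 in 78KO. Only the first 2 arrays of 3w 78KO stood below the others of their age, and the 2-month groups spanned less than 1 log2 unit. The Slc22a29 signals at 3 weeks were 9.65, 9.72 and 10.21 in wild type, 9.34, 9.61, 9.43 and 9.77 in 7KO, 9.49, 9.56, 9.79 and 9.72 in 8KO and 9.01, 8.89, 9.71 and 9.75 in 78KO. They were 4.2, 4.03, 4.30, 4.99 and 5.36 in 2m WT, 4.17, 4.40, 4.15 and 4.39 in 7KO, 5.33, 4.53, 4.34 and 5.13 in 8KO and 4.02, 4.12, 4.13 and 4.07 in 78KO. The same 2 arrays of 3w 78KO were lowest, and at 2 months 8KO replicates 1, 2 and 4 and wild-type replicates 4 and 5 were the highest among these groups.

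The brightest Slc22a26 set kept a signal in the adult, while the second did not. At 3 weeks the brightest set read 9.30, 9.43 and 9.13 in wild type, 9.71, 9.56, 9.66 and 9.30 in 7KO and 9.35, 8.47, 9.39 and 9.37 in 8KO. All 4 of the 78KO arrays, at 8.20, 8.13, 8.35 and 8.90, lay under every wild-type array, and 8KO replicate 2 lay among them. Its signals at 2 months were 6.37, 6.83, 6.56, 6.07 and 5.99 in wild type, 6.66, 6.50, 6.52 and 6.62 in 7KO, 6.57, 6.59, 6.77 and 6.74 in 8KO and 6.45, 6.67, 6.63 and 6.82 in 78KO. These groups overlapped, at the 51.4 to 64.1 percentile of their arrays. The second set had means of 4.59 in 2m WT replicates 1 to 3, at the 22.4 to 24.1 percentile, 4.66 in 7KO, 4.78 in 8KO and 4.69 in 78KO.

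Atp6v0d2 is known from osteoclasts, macrophages and kidney. At 3 weeks it read 6.78, 6.82 and 8.05 in wild type, 6.62, 6.96, 6.81 and 6.86 in 7KO, 6.33, 6.68, 6.41 and 6.34 in 8KO and 6.20, 6.18, 7.53 and 7.57 in 78KO. As with Sult2a2, wild-type replicate 3 was highest and 78KO split into low replicates 1 and 2 and high replicates 3 and 4. At 2 months the signals were 4.34, 4.53, 4.34, 5.11 and 5.76 in wild type, 4.61, 4.54, 4.47 and 4.55 in 7KO, 4.81, 4.80, 4.70 and 4.80 in 8KO and 4.26, 4.54, 4.62 and 4.74 in 78KO. Wild-type replicates 4 and 5, of the other run, stood above all of these. The 7 osteoclast markers measured had a quantile-normalized array mean between 5.87 and 6.05 at 3 weeks and between 5.76 and 5.98 at 2 months, and the 6 kidney proximal tubule markers between 4.69 and 4.99 and between 4.56 and 4.98, so the ranges of both lists overlapped between the ages. In all 3 knockouts 2 osteoclast markers were called lower and 1 higher, and 1 kidney marker was higher. The 11 Kupffer cell and macrophage markers had array means of 7.74 to 8.91 at 3 weeks and 7.89 to 9.20 at 2 months.

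Trim24 binds retinoic acid receptors and restrains liver tumour growth in mice. Its 3-week signals were 7.96, 8.10 and 8.68 in wild type, 8.26, 8.33, 8.68 and 8.43 in 7KO, 8.68, 7.94, 9.62 and 9.53 in 8KO and 7.90, 8.34, 8.45 and 8.69 in 78KO. They were 7.73, 7.13, 7.83, 7.90 and 8.58 in 2m WT, 7.34, 7.27, 7.72 and 7.72 in 7KO, 8.50, 8.48, 8.30 and 8.93 in 8KO and 8.08, 7.96, 8.08 and 8.10 in 78KO. Replicates 3 and 4 of 3w 8KO were the highest at 3 weeks, and at 2 months the 8KO arrays lay above wild-type replicates 1 to 3. The gene ranked between the 83.6 and 93.6 percentile at 3 weeks and still between the 68.3 and 85.5 percentile on the 17 later arrays.

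Ntrk2 was not lost. It read 7.73, 7.80 and 7.12 in 3w WT, 7.71, 7.89, 7.90 and 7.76 in 7KO, 7.63, 7.42, 7.71 and 7.97 in 8KO and 7.69, 7.63, 7.75 and 8.00 in 78KO. The 2-month signals were 7.57, 8.36, 7.33, 7.96 and 7.83 in wild type, 8.81, 7.95, 7.93 and 8.90 in 7KO, 8.86, 8.61, 8.20 and 8.78 in 8KO and 7.98, 7.83, 7.75 and 8.62 in 78KO. Its percentiles overlapped between the ages, from 75.1 to 84.3 at 3 weeks and from 70.2 to 85.6 later. A juvenile signal that is lost by 2 months therefore does not describe Ntrk2, and Trim24, whose percentiles overlapped between the ages, was at most lowered.

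In wild type, the contrast that chose the genes, the quantile-normalized change from 3 weeks to 2 months was -8.29 for Sult2a2, -7.61 for Hao2, -6.79 for Slc22a27 and -6.54 for Slc22a29. It was -3.64 for Atp6v0d2, -3.39 for Slc22a26, -1.40 for Trim24 and -0.50 for Ntrk2. For 7 of the 8 genes each of 2m WT replicates 1 to 3 lay under each 3w WT array, as it did for 26.3% of all genes, and Ntrk2 was the exception.

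The stated rule of choice did not use the 7KO, 8KO and 78KO arrays. In these the size of the fall was taken from the group means of each genotype. The SEs and p-values use a spread per gene shared by all groups of the fit. Those groups include wild type and 2m 123KO, whose arrays chose the genes. The knockout arrays share runs with the wild-type arrays, and the genes were chosen with earlier results known. These tests are therefore not independent of the choice. In the 7KO livers the log2 change was -7.60 for Hao2 (SE 0.14, limma adjusted p = 1.93e-27), -6.96 for Sult2a2 (SE 0.87, adjusted p = 7.49e-08), -6.70 for Slc22a27 (SE 0.16) and -6.18 for Slc22a29 (SE 0.22). It was -3.73 for Slc22a26 (SE 0.29), -3.11 for Atp6v0d2 (SE 0.27) and -1.64 for Trim24 (SE 0.24, adjusted p = 1.21e-06). The 8KO livers gave -7.98 for Hao2 (SE 0.14, adjusted p = 4.42e-28), -7.44 for Sult2a2, -6.26 for Slc22a27, -5.61 for Slc22a29, -3.18 for Slc22a26, -2.44 for Atp6v0d2 and -1.09 for Trim24. In 78KO the changes were -7.52 for Hao2, -6.28 for Sult2a2, -6.44 for Slc22a27, -6.22 for Slc22a29, -2.51 for Slc22a26 (SE 0.29, adjusted p = 1.50e-08), -3.17 for Atp6v0d2 and -1.06 for Trim24 (SE 0.24, adjusted p = 0.000456). The 2-month signals of Hao2, Sult2a2, Slc22a27 and Slc22a29 lay near the floor of the array, so the sizes of their falls are not ranked.

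Each of the 3 knockouts thus had 7 of the 8 genes called lower, 21 of 24 tests, with a threshold of 0.05 on the adjusted p. Among all genes 26.5% were called lower in 7KO, 27.2% in 8KO and 28.3% in 78KO, 19.7% in all 3 knockouts, and 21.1% were called higher in all 3. Ntrk2 differed by -0.13 in 7KO (adjusted p = 0.645), by 0.23 in 8KO (adjusted p = 0.382) and by -0.47 in 78KO (SE 0.22, adjusted p = 0.0713). The 95% intervals of its change ran from -0.92 to 0.68 over the 3 genotypes.

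The scale of the arrays moved the 8 genes and the median gene by similar amounts, and it changed the shares of genes called. On the deposited values, where nearly all genes lay higher at 2 months, 2.57% of genes were called lower in 7KO, 2.32% in 8KO and 2.71% in 78KO, with 1.73% called lower and 85.4% called higher in all 3. Hao2, Sult2a2, Slc22a27, Slc22a29, Slc22a26 and Atp6v0d2 stayed lower in all 3 knockouts, with differences of -7.06 to -1.66. Trim24 was lower in 7KO, at -0.92, while its differences of -0.39 in 8KO and -0.29 in 78KO did not pass (adjusted p = 0.139 and 0.262). Ntrk2 was higher in 7KO, by 0.58 (adjusted p = 0.0135), and in 8KO, by 0.93 (adjusted p = 0.000219), and its 0.28 in 78KO did not pass (adjusted p = 0.22). The values in 7KO and 78KO lay under the rise of the median gene on that scale. Of all genes called in either direction, the share called lower was 46.8% in 7KO, 48.3% in 8KO and 50.2% in 78KO after quantile normalization, 2.81%, 2.53% and 2.95% as deposited, and 30.9%, 33.3% and 29.8% after centring each array on its median. The fall of Trim24 in 8KO and 78KO and any direction for Ntrk2 therefore depend on how the 2 runs are put on one scale.

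Genes read by several probe sets gave mixed results. The 2 sets of Slc22a26 and both sets of Atp6v0d2 were lower in all 3 knockouts, as were 2 of the 3 sets of Trim24 and 19.4% of all probe sets. The second Slc22a26 set showed the deeper fall, at -5.39 in 7KO, -4.92 in 8KO and -4.32 in 78KO, and the second Atp6v0d2 set gave -2.35, -1.36 and -2.27. Of the 8 Ntrk2 sets, none was lower in all 3. The fourth brightest Ntrk2 set changed by -0.77 in 7KO (SE 0.13, adjusted p = 7.56e-06 over probe sets) and by -0.50 in 78KO, while the third brightest rose by 0.87 in 8KO (SE 0.31, adjusted p = 0.0194), so the Ntrk2 sets disagree.

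Slc22a26, Slc22a27 and Slc22a29 lie in one stretch of chromosome 19, where genes of the Slc22 family follow one another. The window holds 14 genes of the RefSeq table of GRCm38.p6, from 5 genes before Slc22a26 to 5 after Slc22a29, of which 13 were measured. The 10 measured genes that are not among the 8 included 3 called lower and 4 called higher with age in all 3 knockouts, where 19.7% of all genes were lower and 21.1% higher. Slc22a30, the next gene after Slc22a29, rose by 2.21 in 7KO, 1.83 in 8KO and 2.08 in 78KO, to a mean of 11.81 at 2 months. Slc22a8, the organic anion transporter OAT3, rose by 1.11 to 1.17, and Slc22a6, the transporter OAT1, by 0.37 to 0.52. Plaat3, Lgals12 and Slc22a19, on the other side, were the 3 called lower, and on the deposited scale none of them was, with Slc22a19 at 0.67 to 0.74, while the rises of Slc22a30, Slc22a8 and Slc22a6 had the same sign on both scales. One probe set that names both Slc22a30 and Slc22a29 was left out, and cross-hybridization between these close relatives was not tested, which bears on the sets of Slc22a27 and Slc22a29, both of the _x_ type that can bind related transcripts.

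**Figure D2:**
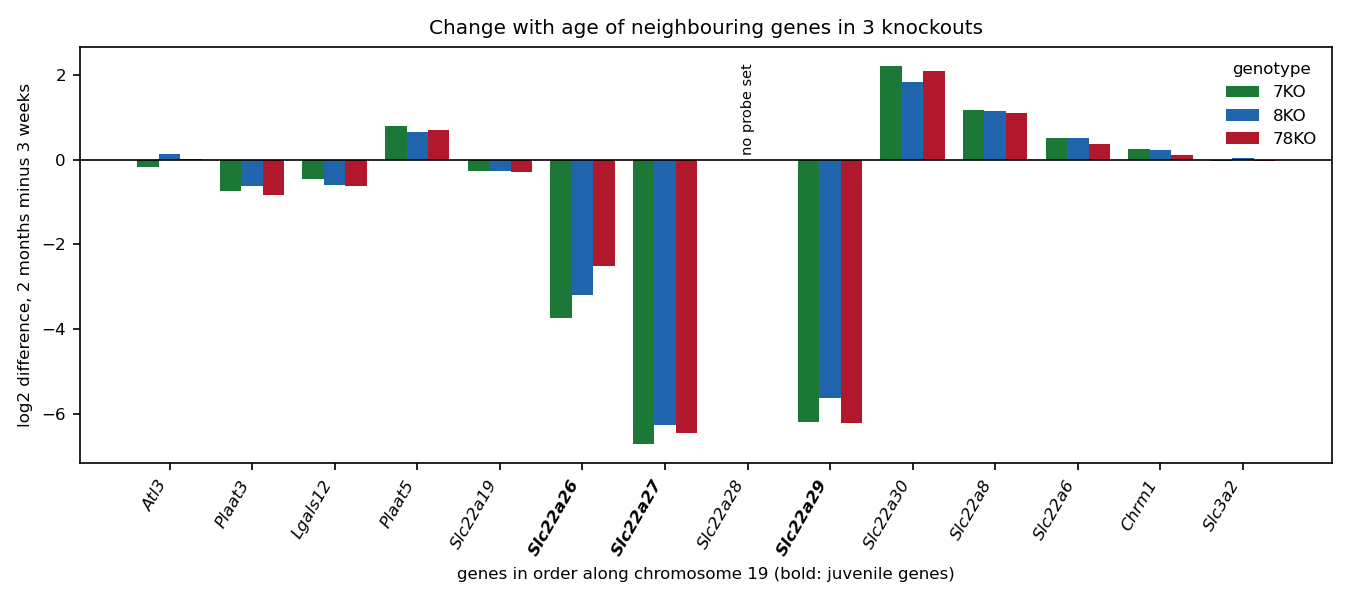
Difference in quantile-normalized log2 signal between 2 months and 3 weeks (vertical axis) of 14 genes in their order along chromosome 19, with 1 bar for each of the 3 knockouts. The bars of Slc22a26, Slc22a27 and Slc22a29 point down to between -2.51 and -6.70, next to the upward bars of Slc22a30, Slc22a8 and Slc22a6; Slc22a28 had no probe set of its own.

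Since these genes fell together, the 250 bases before their RefSeq start sites (GRCm38.p6) are shown, 5′ to 3′ on the gene's own strand. The window of Hao2, which also fell and lies on another chromosome, is shown beside them. No entry was held for Sult2a2. Capitals mark a match to the STAT5 motif TTCNNNGAA or, on either strand, to the HNF6 motif ATTGAT.
Slc22a26, chr19:7802668-7802917, minus strand: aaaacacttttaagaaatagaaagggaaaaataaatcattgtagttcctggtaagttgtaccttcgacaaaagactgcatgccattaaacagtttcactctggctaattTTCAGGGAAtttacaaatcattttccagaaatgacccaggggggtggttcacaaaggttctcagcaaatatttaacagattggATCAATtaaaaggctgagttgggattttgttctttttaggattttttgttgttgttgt
Slc22a27, chr19:7966028-7966277, minus strand: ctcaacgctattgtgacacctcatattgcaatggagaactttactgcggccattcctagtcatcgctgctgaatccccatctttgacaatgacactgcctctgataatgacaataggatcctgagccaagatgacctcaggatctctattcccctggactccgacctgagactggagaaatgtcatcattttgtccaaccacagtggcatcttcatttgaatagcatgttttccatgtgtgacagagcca
Slc22a29, chr19:8218901-8219150, minus strand: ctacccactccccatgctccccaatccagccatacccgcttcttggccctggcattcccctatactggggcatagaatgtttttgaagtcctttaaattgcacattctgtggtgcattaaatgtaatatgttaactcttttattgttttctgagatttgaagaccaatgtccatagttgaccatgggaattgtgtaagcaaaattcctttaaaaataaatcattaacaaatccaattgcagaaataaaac
Hao2, chr3:98893231-98893480, minus strand: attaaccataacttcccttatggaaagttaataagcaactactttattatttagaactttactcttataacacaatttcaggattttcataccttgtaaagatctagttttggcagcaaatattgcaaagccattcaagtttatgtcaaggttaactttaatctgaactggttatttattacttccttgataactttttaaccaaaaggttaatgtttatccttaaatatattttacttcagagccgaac

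RefSeq promoter entries were held for 6 of the 8 genes, 7 windows in all. The STAT5 motif, which reads the same on both strands, was found in Slc22a26 alone, 141 bases before the start, and in 7.02% of 32851 promoters of the same length. HNF6 matched in Slc22a26 alone, 58 bases before the start, against 6.72% of promoters. The E2F words TTTCCCGC, TTTGGCGC, TTTCGCGC and TTTGCCGC, searched on both strands, were in none of the 7 windows and in 1.86% of promoters. A match is a run of letters and not a shown binding site. Aligned end to end, the windows of the 3 Slc22 genes were identical at 51.0% of positions for Slc22a27 and Slc22a29, 50.7% for Slc22a27 and Slc22a26 and 43.9% for Slc22a29 and Slc22a26, beside 38.7% to 54.4% over all pairs, so these 3 pairs lie within the range of all pairs.

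The next question was whether loss of E2f7, E2f8 or both moved the genes within an age. None of the 48 comparisons of a gene with wild type passed in limma, at 10 with an unadjusted p under 0.05 and a lowest adjusted p of 0.0885. The same wild-type arrays had helped to choose the genes. Among all genes the share called was 0.044% for 7KO, 1.91% for 8KO and 0.649% for 78KO at 3 weeks, and 0.0055%, 0.352% and 0.011% at 2 months.

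At 3 weeks 3 differences had an unadjusted p under 0.05 in 78KO and 3 in 8KO. In 78KO Slc22a26 differed from wild type by -0.89 (SE 0.32, 95% interval -1.54 to -0.23, adjusted p = 0.176), with every 78KO array under every wild-type array on both of its probe sets. Slc22a29 differed by -0.52 (SE 0.23, adjusted p = 0.275), Slc22a27 by -0.45 (SE 0.18, adjusted p = 0.219) and Sult2a2 by -1.73 (SE 0.95, 95% interval -3.68 to 0.22, adjusted p = 0.387). For these last 3 genes, replicates 1 and 2 carried the difference. Without 78KO replicate 4, Slc22a27 passed at -0.64 (adjusted p = 0.0472). In 8KO at that age, Hao2 was higher by 0.50 (SE 0.15, 95% interval 0.18 to 0.81, adjusted p = 0.0885) and Trim24 by 0.70 (SE 0.27, adjusted p = 0.194), and Atp6v0d2 differed by -0.78 (SE 0.29, adjusted p = 0.175). For Atp6v0d2, wild-type replicate 3, at 8.05, lay far above replicates 1 and 2, at 6.78 and 6.82. All 8KO arrays, at 6.33 to 6.68, lay under every wild-type array. Without 8KO replicate 2 both Hao2, at 0.60 (adjusted p = 0.0392), and Trim24, at 1.03 (adjusted p = 0.0186), passed, and Hao2 did so without wild-type replicate 2, at 0.65 (adjusted p = 0.0428).

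At 2 months 3 differences had an unadjusted p under 0.05 in 8KO, 1 in 7KO and none in 78KO by limma. In 8KO Trim24 differed from wild-type replicates 1 to 3 by 0.99 (SE 0.27, 95% interval 0.43 to 1.54, adjusted p = 0.121) and Ntrk2 by 0.86 (SE 0.24, 95% interval 0.38 to 1.34, adjusted p = 0.116). All 4 of the 8KO arrays exceeded those wild-type arrays for Trim24, and the Ntrk2 groups overlapped. With weights for array quality both passed, Trim24 at 1.00 (adjusted p = 0.014) and Ntrk2 at 0.88 (adjusted p = 0.0448). Slc22a29 was at 0.65 (SE 0.23, adjusted p = 0.327) and Atp6v0d2 at 0.38 (SE 0.29, adjusted p = 0.954). When only the groups compared were fitted, Atp6v0d2 passed at 0.38 (adjusted p = 0.0425) and Trim24 at 0.99 (adjusted p = 0.0477), and with no run term Ntrk2 passed at 0.81 (adjusted p = 0.0405) while Atp6v0d2 was at -0.04. Ntrk2 also read higher in 7KO, by 0.65 (SE 0.24, adjusted p = 0.507). The third brightest Ntrk2 set read 7.10, 7.19, 6.82 and 7.59 in 2m 8KO against 5.15, 6.31 and 5.49 in wild type, a difference of 1.52 (SE 0.33, adjusted p = 0.05 over probe sets), with no overlap. Sult2a2 had the widest intervals at this age, from -2.03 to 2.26 over the 3 knockouts, because the fit shares 1 spread over all groups. Its own SD was 0.11 in 2m WT replicates 1 to 3, 0.36 in 7KO, 0.09 in 8KO and 0.75 in 78KO, against 3.95 in 2m 123KO and 1.93 in 3w 78KO. In 3w 7KO the sixth brightest Ntrk2 set was higher by 0.38 (SE 0.08, adjusted p = 0.0431 over probe sets). That set lay near the floor, at the 6.2 to 16.0 percentile in 3w WT and 3w 7KO. The brightest set was at 0.26 there (limma adjusted p = 0.713).

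Macrophage markers also differed in 8KO. Of the 11 Kupffer cell and macrophage markers 2 were called lower at 2 months, Cd5l at -0.94 and C1qb at -0.84 (median of the list -0.67), and 1 at 3 weeks, Adgre1 at -0.58 (median -0.50). Their part in the 8KO values of Atp6v0d2, which macrophages express, and of the other genes was not tested.

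**Figure D3:**
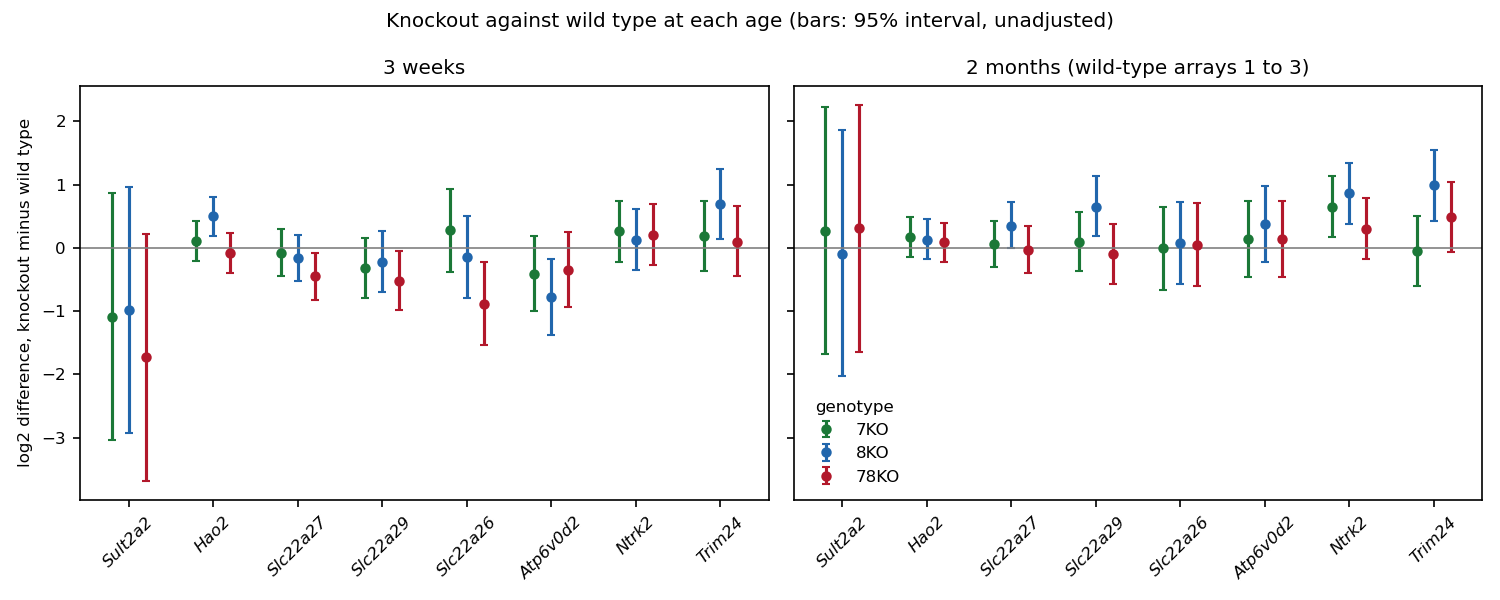
Difference in deposited log2 signal from wild type (vertical axis) of each gene in 7KO, 8KO and 78KO at 3 weeks (left) and at 2 months (right), with unadjusted 95% intervals. Of the 48 intervals 10 exclude 0. Among these are Slc22a26 in 3w 78KO, at -0.89, and Trim24 and Ntrk2 in 2m 8KO, at 0.99 and 0.86. None of the differences passed adjustment over all genes.

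The change with age was then compared between the knockouts, without the wild-type arrays. None of 24 comparisons passed in limma, with 3 at an unadjusted p under 0.05 and a lowest adjusted p of 0.441. Called genes made up 0.011% of all genes for 78KO against 7KO, 0.209% for 78KO against 8KO and 0.055% for 8KO against 7KO. The fall of Slc22a26 was smaller in 78KO than in 7KO by 1.21 (SE 0.41, 95% interval 0.38 to 2.04, adjusted p = 0.501), and that of Hao2 smaller in 78KO than in 8KO by 0.46 (SE 0.20, adjusted p = 0.441). Ntrk2 changed by -0.70 in 78KO relative to 8KO (SE 0.31, adjusted p = 0.475). The Slc22a26 difference passed when only the groups compared were fitted (adjusted p = 0.0369). Over all probe sets the third Trim24 set passed, with a change in 8KO that exceeded that in 7KO by 1.51 (SE 0.28, adjusted p = 0.0285) and a change in 78KO relative to 8KO of -1.36 (adjusted p = 0.0337). Its mean went from 4.43 to 4.53 in 8KO and from 5.43 to 4.01 in 7KO, so the Trim24 sets disagree in 8KO.

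Arrays of one group that were high for Sult2a2 tended to be high for Slc22a27, Slc22a29 and Atp6v0d2. At 3 weeks, over 15 arrays and after subtraction of the group mean, the deviations of Sult2a2 correlated with those of Slc22a27 (r = 0.91), Slc22a29 (r = 0.90) and Atp6v0d2 (r = 0.88). Slc22a27 and Slc22a29 had r = 0.91, and Slc22a29 and Atp6v0d2 r = 0.90. Pairs that include Hao2, Slc22a26, Ntrk2 or Trim24 ran from -0.23, for Atp6v0d2 and Ntrk2, to 0.71, for Hao2 and Ntrk2. Hao2 had an r of 0.17 with Sult2a2, -0.15 with Atp6v0d2, 0.20 with Slc22a29, 0.45 with Slc22a27, 0.54 with Slc22a26 and Trim24, and 0.71 with Ntrk2. These points share livers, run and array quality, and the split within 3w 78KO weighs in each.

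In the 2m 123KO group the genes differed in how far they lay above wild type. Replicates 1, 2 and 3 read 5.31, 4.21 and 11.53 for Sult2a2, against 3.69 and 3.91 in wild-type replicates 4 and 5. Replicate 3 reached the 96.9 percentile of its array, inside the span of the 3-week arrays, and replicate 2 was the nearest to wild type. Slc22a26 read 6.49, 6.82 and 9.04 against 6.07 and 5.99, again with replicate 3 far above the others. Atp6v0d2 read 6.15, 6.89 and 7.51 against 5.11 and 5.76, and Slc22a29 6.0, 5.53 and 6.82 against 4.99 and 5.36. Both of these were above wild type on all 3 arrays. Trim24 was at 9.14, 9.19 and 9.73 against 7.90 and 8.58, the highest level of any 2-month group on its brightest set. Its second set was also above wild type, at 6.09, 6.13 and 6.46 against 5.71 and 5.83. The third set was level with it, at 4.97, 5.29 and 5.20 against 4.98 and 5.22, so the Trim24 sets disagree here too.

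Hao2 was not higher. Its 2m 123KO signals of 3.59, 3.73 and 3.91 lay among the 3.54 and 3.96 of wild type. Slc22a27 read 4.38, 3.95 and 4.46 against 3.86 and 4.02, with replicate 2 between the wild-type arrays. Ntrk2 read 8.09, 8.05 and 8.36 against 7.96 and 7.83, within the span of the other 2-month groups. In all, 6 of the 8 genes lay above both wild-type arrays on every 2m 123KO array, beside 13.2% of all genes, but this contrast chose the genes and nothing is read from the count.

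The mean differences from wild-type replicates 4 and 5 were 3.21 for Sult2a2, 1.42 for Slc22a26, 1.41 for Atp6v0d2, 1.11 for Trim24, 0.94 for Slc22a29, 0.33 for Slc22a27, 0.27 for Ntrk2 and -0.01 for Hao2. Without replicate 3 they were 0.96, 0.63, 1.08, 0.92, 0.59, 0.23, 0.17 and -0.09 in the same order. Sult2a2 and the brightest Slc22a26 set therefore rest on that array. The second Slc22a26 set read 5.91, 6.43 and 9.25 in 2m 123KO, each above the 4.94 and 5.13 of wild-type replicates 4 and 5. The wild-type replicates of the 2 runs also differed, with replicates 4 and 5 above replicates 1 to 3 by 1.04 for Atp6v0d2, 1.00 for Slc22a29 and 0.68 for Trim24. The gap was -0.59 for Sult2a2 and -0.56 for the brightest Slc22a26 set. On the second Slc22a26 set replicates 4 and 5 were the higher, with 4.54, 4.62 and 4.61 in replicates 1 to 3.

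**Figure D4:**
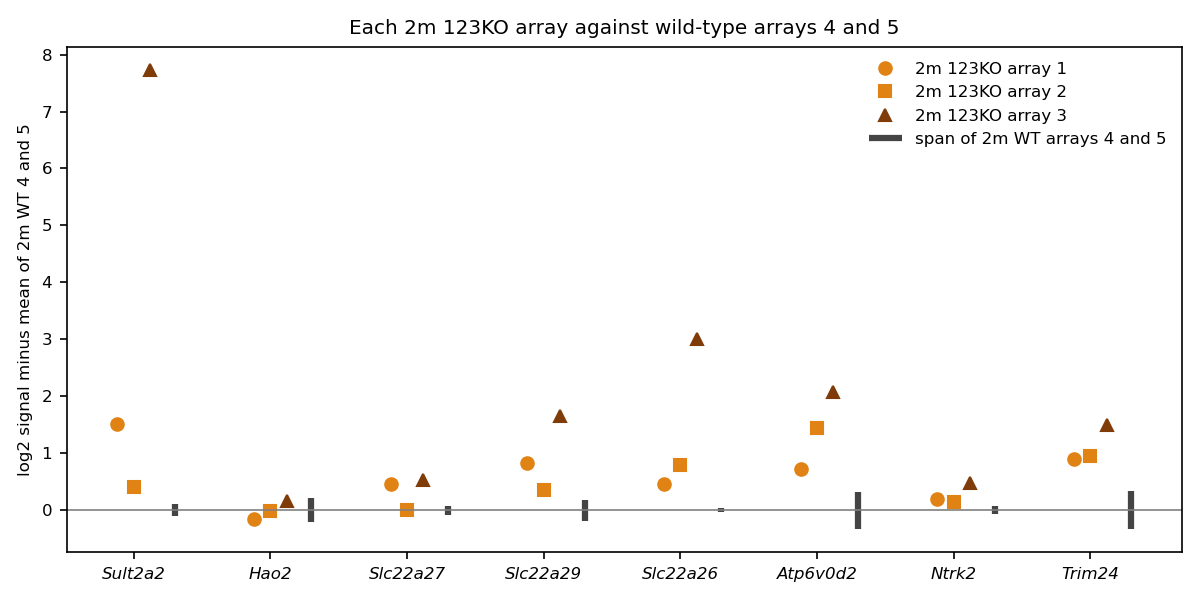
Deposited log2 signal of each 2m 123KO array minus the mean of 2m WT replicates 4 and 5 (vertical axis), with the span of those 2 wild-type arrays as a grey bar. Replicate 3 is the highest of the 3 arrays for every gene, up to 11.53 against 5.31 and 4.21 for Sult2a2, and all arrays of Hao2 lie near 0.

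Sex-biased genes moved beside them. Of 40 female-biased liver genes chosen for comparison 32 were measured, and their mean was 8.65, 8.51 and 9.58 on 2m 123KO replicates 1, 2 and 3 against 7.81 and 8.09 in wild type. The 33 measured of 46 male-biased genes had means of 9.68, 9.98 and 8.49 against 10.42 and 10.16. Replicate 3 was the most female-like by both lists, while its Xist signal of 5.88 equalled the 5.90 and 5.86 of the others. Their part in the differences of the 8 genes was not tested. In 2m 123KO against wild type 6 female-biased genes were called higher and 1 lower (median difference 0.97, all genes 0.00), and 7 male-biased genes were called lower and none higher (median -0.60), where 1.71% of all genes were called higher and 1.57% lower. Cyp2b9, a steroid hydroxylase, rose by 4.59 (SE 1.30, adjusted p = 0.0464), Nipal1 by 3.00 and Mmd2 by 1.88, while Ugt2b38 was at -3.83 and Hsd3b5, a male-specific steroid dehydrogenase, at -3.11 (SE 0.84, adjusted p = 0.0347). Without replicate 3 Cyp2b9 (3.22, adjusted p = 0.223) and Hsd3b5 (-1.71, adjusted p = 0.214) did not pass, while Nipal1 (2.31), Mmd2 (1.81) and Ugt2b38 (-3.23) did. The counts were then 6 higher and 1 lower of the female-biased genes (median 0.54) and 4 lower and 1 higher of the male-biased (median -0.28), where 1.1% of genes were higher and 0.89% lower.

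Other cell markers were not level in that contrast. Of the 11 Kupffer cell and macrophage markers 4 were called higher in 2m 123KO, led by Marco at 2.85 (SE 0.34, adjusted p = 4.36e-06), and their mean was 9.20, 9.18 and 9.63 against 8.54 and 8.80. Without replicate 3 only 1 of the 11 passed. Of 9 hepatocyte markers 1 was called lower, Apoa1, at -0.17. Of 29 cell cycle genes 4 were called higher, and none without replicate 3 (limma, median 0.17). Macrophages also express Atp6v0d2, and the part of these markers in the result was not tested.

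The same lists changed with age. In all 3 knockouts, where 19.7% of all genes were called lower and 21.1% higher, 17 of the 32 female-biased genes were called lower and 2 higher (median of the mean change -1.05, all genes 0.01), and 15 of 33 male-biased genes were higher and 1 lower (median 0.85). Sult3a1, an amine sulfotransferase, changed by -6.03 in 8KO (SE 0.77) and Cyp2b13, a steroid hydroxylase, by -3.10, while Cyp7b1, the oxysterol hydroxylase, rose by 3.37 (SE 0.31). On the deposited scale, with 1.73% of all genes lower and 85.4% higher, the female-biased list had 7 lower and 7 higher and a median of -0.26 against 0.78 for all genes, and 25 of its 32 genes lay under that median. The male-biased list then had 30 of 33 higher and 3 under the median of all genes. Cell cycle genes, which decline as the liver stops growing, were lower for 25 of 29 with none higher (median -1.55), and 20 were lower and 5 higher on the deposited scale. Of 11 stellate cell and fibroblast markers 8 were lower and of 10 sinusoidal endothelial markers 5, with none higher, and on the deposited scale 3 and 1 were lower. Their part in the falls of the 8 genes was not tested.

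The families of the 8 genes are read against 19.7% of all genes lower and 21.1% higher in all 3 knockouts, and most counts were near these shares. Of 18 other Slc22 carriers, 4 were called lower and 9 higher with age in all 3 knockouts (median 0.35), and of 13 other cytosolic sulfotransferases 3 were lower and 3 higher. The 22 other V-ATPase subunits had 4 lower and 8 higher, and the 13 other peroxisomal oxidases 3 of each. Among 8 neurotrophins and receptors besides Ntrk2, 2 were lower, among them Ntrk3 at -0.55 in 8KO, and 2 higher. Of 12 Trim24 partners and relatives 1 was lower, Rarb, the retinoic acid receptor beta, at -1.06 in 8KO, and 3 higher. On the deposited scale, where 85.4% of all genes were higher, none of the other Slc22 carriers, sulfotransferases, V-ATPase subunits or neurotrophin genes was lower in all 3, so the directions of these smaller changes depend on the scale. In 2m 123KO, Rarb was higher by 1.44 (SE 0.20, adjusted p = 4.14e-05) and Hao1, the glycolate oxidase related to Hao2, lower at -0.93 (SE 0.22, adjusted p = 0.0138), or 1.49 and -0.43 without replicate 3, while none of the 18 Slc22 carriers passed. Growth hormone signalling genes had 2 higher and 3 lower of 27 in that contrast, with Esr1, the oestrogen receptor, at 1.13 (SE 0.22), Igfals at -0.94 and Cebpa at -0.77. Without replicate 3 that list had 1 higher and 1 lower, with Esr1 at 0.84, Cebpa at -0.55 and Igfals at -0.59 (adjusted p = 0.159).

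Over all 35 quantile-normalized arrays the genes most like each of the 8 were mostly others that differ between the ages. Hao2 was followed most closely by Spin4 (Pearson r = 0.987), St8sia6 and Zfp777, and both Slc22a27 and Slc22a29 by Nt5e, the ecto-5′-nucleotidase (r = 0.986 and 0.985). The nearest to Sult2a2 was Dsn1, a kinetochore gene (r = 0.964), to Slc22a26 Rad54b (r = 0.965) and to Atp6v0d2 Jazf1 (r = 0.967). Trim24 went with Nipal1 (r = 0.896), a gene of the female-biased list. For Ntrk2 the highest r was 0.739, with the chemokine gene Cxcl12. These 35 points share age and run, and r is given as a description.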

How the data were processed

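Total RNA of mouse liver was measured on 35 arrays. The deposited table holds log2 signals of 45101 probe sets, made by the authors with RMA per the submitters' processing notes. Of these, 34945 name 1 gene, 932 several, 9160 none, and 64 are controls. Each of 18193 genes was taken from its brightest single-gene probe set. Group means over all arrays, with a term for the run of 2m 123KO, were fitted with limma 3.58.1 in R 4.3.3 (lmFit, eBayes with trend), and p-values were adjusted over all genes by Benjamini-Hochberg at 0.05. The fit was tested on simulated data. Runs were read from the arrays' sorted values, which differed on average by 0.02 to 0.033 log2 within a run and by 0.122 to 0.801 between runs. Comparisons within an age used the deposited values, and those between ages quantile-normalized values.

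The members and gene lists were chosen with earlier results of these data known. Named list genes are the up to 3 with the largest called change per list and comparison. In the neighbour window, likeness and probe set paragraphs, further genes were named after their values were seen. Alternatives were another scale of the arrays, median centring, no run term, only the groups compared, a filter on dim genes (40% lowest), all, second or averaged probe sets, array weights, a replicate block and leaving out each array. The number of arrays limits the precision. Probe sets naming several genes or none were not used here.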

Additional observations from a re-analysis of the deposited data

Results flagged for a closer look

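In 4 of 56 groups of 4 or 5 arrays, 1 array stood apart from the others by Dixon's test, where chance gives about 1 in 20. Sult2a2 had its highest 2m 78KO array, replicate 4, at 5.82. Slc22a26 had its lowest 3w 8KO array, replicate 2, at 8.47. Atp6v0d2 in 2m 8KO was lowest at 4.70 in replicate 3, in a group that spans little. Trim24 in 2m 78KO was lowest at 7.96 in replicate 2, also within a narrow group.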

How the results depend on the processing

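The 7 genes other than Ntrk2 kept a negative age difference in each alternative that gave them a value, except the third Trim24 probe set in 8KO (0.09). The filter on dim genes left Atp6v0d2 untested. Ntrk2 reversed on the deposited scale in 7KO (0.58) and 78KO (0.28), with its second probe set in 8KO (-0.21), and in 7KO without 2m 7KO replicate 2 (0.01) or 3 (0.03), within a range of -0.29 to 0.03 over left-out arrays. Atp6v0d2 in 2m 8KO reversed to -0.04 with no run term. In 2m 8KO against wild type 1 gene passed with no run term, 2 when only the groups compared were fitted and 2 with array weights. With only the groups compared, 1 gene passed for 78KO against 7KO and 1 for 8KO against 7KO. Leaving out single arrays gave 0 to 2 genes called in 3w 8KO and 0 to 1 in 3w 78KO. The wild-type median age difference, -5.09, was -4.25 as deposited, where the median of all genes rose by 0.78, and -4.89 median-centred. It was -4.84 with no run term and -6.54 without dim genes, a filter that leaves Atp6v0d2 out of the median. Averaged probe sets gave -5.45, and leaving out single arrays -5.23 to -4.93. Causes of these shifts were otherwise not tested. With a replicate block 7, 7 and 8 genes fell with age in 7KO, 8KO and 78KO (Ntrk2 in 78KO at -0.47, limma adjusted p = 0.0462), and no gene differed from wild type. Same-numbered arrays did not deviate together (mean r 0.00 and 0.01 in 2 runs), so the numbers do not pair the samples.

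Counts over all genes moved more. With age 10320 genes were called in 7KO, 10251 in 8KO and 10281 in 78KO, against 16684, 16648 and 16716 as deposited, 5691, 5737 and 5723 without dim genes, and 19225, 19254 and 19215 probe sets. Against wild type 347 genes were called in 3w 8KO, and 23 with only the groups compared, 115 with no run term and 161 with array weights. In 2m 8KO 64 were called, and 39 to 282 under the other settings. Likewise 8 in 3w 7KO became 0 to 42, 118 in 3w 78KO 1 to 200, 1 in 2m 7KO 0 to 59 and 2 in 2m 78KO 1 to 13. Between knockouts 38 became 19 to 130 for 78KO against 8KO, 10 became 0 to 98 for 8KO against 7KO and 2 became 1 to 9 for 78KO against 7KO. Leaving out 1 array gave 1 to 265 genes in 3w 7KO, 166 to 396 in 3w 8KO, 13 to 549 in 3w 78KO, 0 to 39 in 2m 7KO and 7 to 100 in 2m 8KO, so the shares of all genes called against wild type are loose.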
